A study of Mus musculus with 8 samples.

Results

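Plasma cells were examined in single-cell RNA sequencing of CD45.2+ cells sorted from the mouse brain. A barcode, which marks 1 droplet, was taken as a plasma cell where it held at least 5 unique molecular identifiers (UMIs, each marking a captured transcript) of Jchain, at least 2 of the genes Sdc1, Tnfrsf17, Derl3 and Prdm1, and no UMI of Cd3e or Ms4a1. This gate found 645 plasma cells among 46314 barcodes that passed the same filters of quality and hashtag. The 7217 B cells used for comparison were barcodes with Ms4a1 and Cd79a.

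The 8 libraries came from WT (C57BL/6J) and APPNL-G-F mice, each genotype as control, with acute colitis, with chronic colitis or with food allergy, and the labels give an age of 16 weeks for all. Acute colitis was induced with 2% dextran sulfate sodium (DSS) in the drinking water for 1 week, and chronic colitis by giving it for 5 days in each of 3 cycles. Mice of the food allergy groups were sensitized to ovalbumin and then given it by mouth. APPNL-G-F mice carry a humanized amyloid-β sequence with the Swedish, Iberian and Arctic mutations in the App gene itself, with no added transgene. WT mice were purchased and APPNL-G-F mice came from another institute, so genotype and source cannot be told apart. Each condition was 1 library, so library and condition cannot be told apart either. Within a library, hashtag antibodies marked the samples before they were pooled, and the 30 hashtag groups are the units of every test here. The sources used here do not state which mouse each hashtag marks, so p-values measure the spread between hashtag groups. The APPNL-G-F chronic colitis library has more hashtag groups than the mice stated for it, so some of its groups may share a mouse, and p-values that use them may then be too small. An antibody against CD45 was injected before perfusion to mark cells in the blood, and whether a given plasma cell was marked cannot be read from the counts.

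Plasma cells are the end stage of B cell differentiation and secrete antibody. Blimp-1, encoded by Prdm1, and Xbp1 drive this stage, in which B cell genes such as Pax5 are shut off and the endoplasmic reticulum expands to fold, glycosylate and export immunoglobulin. The J chain joins IgM and IgA into polymers that epithelia can transport. Plasma cells of the meninges include IgA cells whose antibody genes are related to those of gut plasma cells.

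The plasma cells were deep and filled with antibody transcripts. Their median was 21939 UMIs and 2230 genes per cell, against 2477 UMIs in B cells. Immunoglobulin genes gave a median of 60.9% of a plasma cell's UMIs and 2.38% of a B cell's. Levels are therefore given as CPM, the count of a gene over the total count of all genes other than immunoglobulins, scaled alike in every group. Of such UMIs a plasma cell held a median of 8331. Total UMIs over all barcodes came to between 26988646 and 56307389 per library, and median UMIs per plasma cell to between 14708 and 26469.

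The label was checked with markers that the gate had not used. Xbp1 was detected in 99.8% of plasma cells at 4491 CPM, against 196 CPM over the other barcodes. Mzb1, a chaperone of immunoglobulin assembly, stood at 4922 against 145 CPM and was detected in 99.5% of the cells. Slamf7, a surface receptor of plasma cells, was detected in 96.0%, Eaf2 in 86.0%, the folding enzyme Fkbp11 in 76.9% and the transcription factor Irf4 in 64.8%. B cell genes were low: Pax5 came to 0.537 CPM, and no UMI of Cd22, Cxcr5 or Fcer2a was counted. Cd74, the invariant chain of MHC class II, was still at 12695 CPM. These are descriptions, since the same cells were chosen by related genes. By ratio to the other barcodes, the leading genes were Ccr10 (a chemokine receptor, 130-fold), Cldn7 (a claudin, 115-fold), Jchain (110-fold), Tnfrsf17 (the survival receptor BCMA, 95.2-fold), Pls1 (80.3-fold), Derl3 (68.5-fold), Oosp1 (64.1-fold) and the sulfotransferase gene Chst1 (62.8-fold). Of these, Jchain, Tnfrsf17 and Derl3 were used by the gate, which fixes that they are high.

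The edge of the gate was set by its exclusions more than by Jchain. Inside it, 1 cell had 5 to 9 Jchain UMIs and the median was 1157, while 6 barcodes that met the other terms had 1 to 4. A further 53 barcodes stayed outside with 1 of the 4 other genes. By contrast, 282 barcodes were left out for a UMI of Ms4a1 (223) or Cd3e (77), at a median of 20846.5 UMIs of which 53.2% were immunoglobulin. Another 71 barcodes that met the gate were left out by the hashtag filter, 70 of them for more than 1 hashtag. The results below that rest on numbers of cells were recomputed with the Ms4a1 and Cd3e terms dropped. No plasma cell barcode was shared with a plasma cell of another library, while 1278 of 45004 barcode names over all cells occurred in several libraries.

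Markers of other cell types were present at levels that varied between hashtag groups. Over the 17 hashtag groups with at least 10 plasma cells, 6 neutrophil genes summed to between 0 and 41610 CPM (median 182), against 59412 CPM over the other barcodes. Their highest value was 32572 CPM in WT and 41610 CPM in APPNL-G-F groups. Haemoglobin genes summed to between 0 and 4686 CPM (median 0), with a highest value of 21.8 CPM in WT groups and 743 CPM over the other barcodes. T cell genes came to at most 69.1 CPM (660 over the other barcodes) and mature B cell genes to at most 182 CPM (364). The gate fixed Cd3e of the former list and Ms4a1 of the latter at 0. It left out barcodes with either gene, so these sums are no independent check. Cd22 and Fcer2a, which the gate did not use, were also at 0. Developing B cell genes came to at most 172 CPM (440) and mast cell genes to at most 12.3 CPM (374). In the highest group, macrophage and microglia genes (643 CPM, median 31.2) and fibroblast genes (198 CPM, median 0) exceeded their levels of 572 and 55.1 CPM over the other barcodes. The list for plasmacytoid dendritic cells came to between 323 and 830 CPM, and it holds Bst2, which plasma cells also express. Jchain and heavy chain transcripts, the latter not particular to plasma cells, were also counted in other barcodes. Of 10625 barcodes outside the gate with Cd3e and no Ms4a1, at a median of 3018 UMIs, 6.29% held a Jchain UMI. An Ighm UMI was held by 30.1% and an Igha UMI by 0.706%. Barcodes with any held a mean of 98.3 Jchain, 11.1 Ighm and 173 Igha UMIs. Free RNA and droplets with more than 1 cell were not told apart here, and the part of either in the results below was not tested.

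The first question was whether the share of plasma cells differed between treatments or genotypes. In WT mice plasma cells made up 0.815% of barcodes in control (exact 95% binomial interval 0.615 to 1.06), 1.41% with acute colitis, 1.05% with chronic colitis and 1.16% with food allergy. In APPNL-G-F mice the shares were 1.76% in control (1.46 to 2.11), 1.77%, 1.45% and 1.64% in the same order. The intervals cover counting error only. Hashtag groups of a library could differ widely. In WT control the 4 groups lay between 0.435% and 0.970%, while in APPNL-G-F control they had 0.119%, 0.524%, 2.56% and 3.86% plasma cells. Over the groups with at least 100 barcodes, WT averaged 0.873% ± 0.790 (SD, n = 13) and APPNL-G-F averaged 1.69% ± 1.43 (SD, n = 15). The genotypes overlapped over most of their range, and the difference of 0.838 percentage points within treatments gave p = 0.0901 in a two-sided stratified permutation test, 0.983 after Benjamini-Hochberg adjustment over 16 tests. The differences from control were 0.383 points for acute colitis, -0.271 points for chronic colitis and 0.0348 points for food allergy, each with an adjusted p of 0.983 in the exact stratified permutation test.

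**Figure D1:**
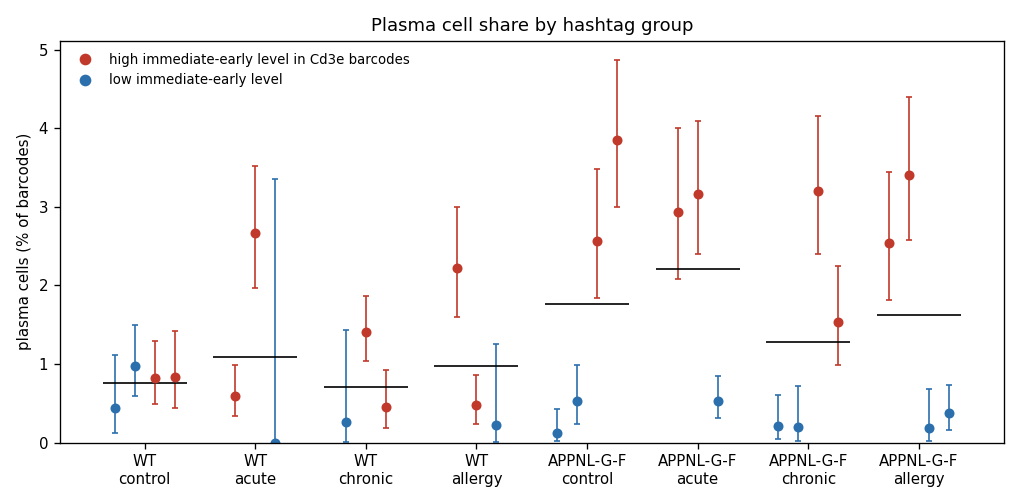
Plasma cells as a percent of barcodes in each of 28 hashtag groups, by library, with exact 95% binomial intervals and the mean of each library's groups as a line. Groups with a low immediate-early level (blue) lie at or below 0.970%, and groups with a high level (red) lie between 0.446% and 3.86%.

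The spread followed another measure of the hashtag groups. Immediate-early genes such as Fos, Jun and Egr1 are induced within minutes of stimulation or of cell isolation. Summed over 10 such genes in Cd3e barcodes, the groups fell on either side of a gap, at 781 to 1809 CPM in 12 groups and 3304 to 6773 CPM in 16. These sets were defined from the data, so no test was made of them. Plasma cells were 0.426% of barcodes in the low set (69 of 16215) and 1.92% in the high set (575 of 30014). All 12 low groups, and 5 of the 16 high groups, were under 1%. Other populations differed too. Barcodes with at least 10 UMIs of S100a8 plus S100a9 had a median of 3.29% in the low and 8.04% in the high groups. Barcodes with Cd3e ran the other way, with medians of 36.6% and 19.6%, as did those with Vpreb1, Igll1, Rag1 or Dntt (3.23% and 1.71%). B cells had medians of 11.4% and 13.5%. The ranges of all of these overlapped between the sets. In the plasma cells themselves the 10 genes summed to 1661 CPM in the low set (70 cells, which include 1 in a group under 100 barcodes) and 5374 CPM in the high set. What sets these levels was not tested. The comparisons of treatments and genotypes were repeated within these sets, and differences whose sign turned are given with the other alternatives at the end. The part of these levels in the plasma cell share was not otherwise tested.

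Over all libraries together, IgM was the main class, followed by IgA and IgG. A plasma cell was assigned a class where it held at least 5 heavy chain constant UMIs with at least 70% from 1 class. The constant genes lie in a cluster on chromosome 12 (GRCm38), with Ighm at chr12:113418558-113422730 and Igha at chr12:113254830-113260236, both on the minus strand. By this rule 383 cells were IgM (59.4%), 168 were IgA (26.0%), 90 were IgG (14.0%) and 4 had no class. Each WT library had this order, but the APPNL-G-F libraries did not. There IgG exceeded IgA in control (28 against 24 cells), acute colitis (17 against 12) and chronic colitis (26 against 13). In APPNL-G-F food allergy, IgA exceeded IgM (56 against 39). The leading class held a median of 100% of an IgM or IgA cell's constant UMIs and 99.9% of an IgG cell's. No IgE cell was found in 645, food allergy libraries included. Taken as 3 over the number of cells, this allows a share of up to 0.465%, while the exact binomial interval reaches 0.570%. Both bounds treat cells as independent draws, although cells of a hashtag group often shared their V genes. The IgG cells were 34 of Ighg2c, 26 of Ighg1, 26 of Ighg2b and 4 of Ighg3, although Ighg2b and Ighg2c are alike enough for reads to be split between them. Of the 26 Ighg1 cells 17 came from the APPNL-G-F chronic colitis library. IgM cells had a median of 19105 UMIs, IgA cells 25754.5 and IgG cells 27557.5. Lambda light chains were used by 26 IgM, 7 IgA and 5 IgG cells.

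IgG plasma cells were more frequent in APPNL-G-F than in WT mice. They were 82 of 418 cells (19.6%) in APPNL-G-F and 8 of 227 (3.52%) in WT libraries. In the WT hashtag groups with at least 10 plasma cells, the IgG share was 0% in all 3 control groups, 0% and 2.08% with acute colitis, 10.9% with chronic colitis, and 2.44% and 0% with food allergy. In APPNL-G-F groups it was 25% and 23.9% in control, 23.7%, 7.55% and 23.5% with acute colitis, 35.8% and 28.0% with chronic colitis, and 10.0% and 7.14% with food allergy. Within every treatment the genotypes did not overlap, and over all treatments the only overlap was between the WT chronic colitis group and the lower 3 APPNL-G-F groups. For a count of 0, the share allowed was taken as 3 over the number of cells. A WT control group of 13 to 20 cells then allows a share of 15% to 23.1%. The 55 cells of that library allow 5.45%, while the exact binomial interval reaches 6.49%. These bounds treat cells as independent draws. In hashtag group 5 of WT control, however, 15 of 20 cells shared their heavy and light V genes with another cell. WT groups averaged 1.92% ± 3.76 (SD, n = 8) and APPNL-G-F groups 20.5% ± 10.0 (SD, n = 9). The difference within treatments was 17.5 percentage points, with p = 0.000556 in an exact two-sided permutation test within treatments, the smallest p that this design allows, and 0.00222 after Benjamini-Hochberg adjustment over 4 IgG comparisons. The IgG share was chosen as a measure after the data had been seen. Counting 1 cell for each V pair, class and hashtag group gave 21.0 points (exact permutation p = 0.000556), and dropping the Ms4a1 and Cd3e terms gave 14.5 points.

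**Figure D2:**
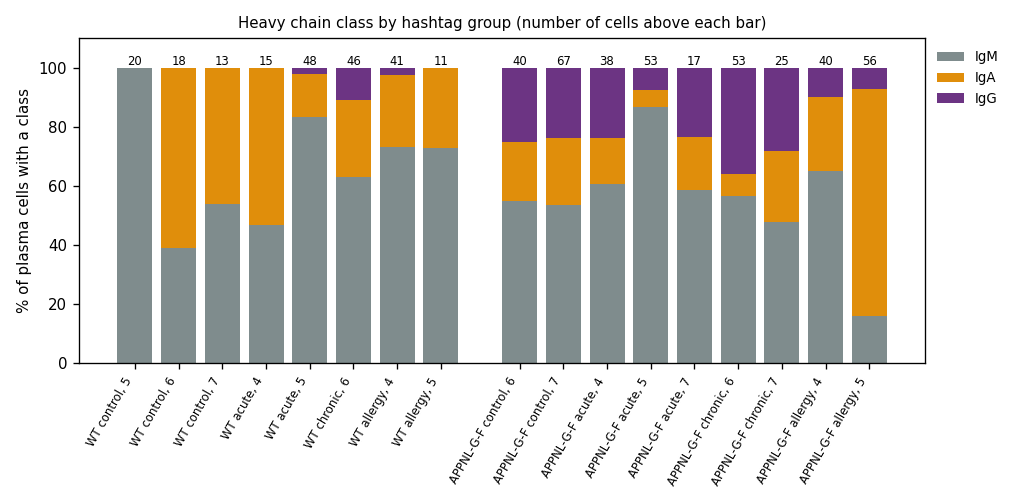
Heavy chain class as a percent of the plasma cells with a class in 17 hashtag groups, named by genotype, treatment and hashtag number, with the number of cells above each bar. IgG (purple) reaches 10.9% at most in the 8 WT groups and lies between 7.14% and 35.8% in the 9 APPNL-G-F groups.

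The IgG share did not pass the test in any treatment. It was 9.18 points above control in chronic colitis (exact permutation p = 0.0417, the smallest the design allows, 0.0833 adjusted over the 4 comparisons), and the remaining differences were -2.57 points in acute colitis (adjusted exact permutation p = 0.8) and -7.32 points in food allergy (0.444). Only 1 WT group of chronic colitis had enough cells for this comparison.

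IgA and IgM shares varied widely among hashtag groups of the same library. IgA cells made up 0% to 61.1% of WT groups (median 26.7%) and 5.66% to 76.8% of APPNL-G-F groups (median 20.0%). The extremes were hashtag group 5 of WT control, with 20 of 20 cells IgM, and hashtag group 5 of APPNL-G-F food allergy, with 43 of 56 cells IgA. In WT control, hashtag groups 6 and 7 had 61.1% and 46.2% IgA. The IgA share differed from control by -4.98 points for acute colitis, -7.54 points for chronic colitis and 9.89 points for food allergy, and by -5.18 points between APPNL-G-F and WT. The IgM share differed by 7.55, -1.63 and -2.56 points in the treatments and by -12.3 points between genotypes. Each of these 8 comparisons had an adjusted p of 0.983 in the exact permutation test. All of them were smaller than the spread between hashtag groups of a genotype.

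Variable (V) genes show how related the plasma cells of a sample are, since the daughters of 1 B cell keep the same heavy and light V gene. A V gene was assigned where it held at least 70% of a cell's V UMIs of that chain, and 624 of the 645 cells had both chains. The cells used 75 heavy and 74 light V genes in 318 pairs. The leading V gene held a median of 99.9% of heavy and 99.2% of light V UMIs. A shared pair is not a clonotype, because junction sequences were not analysed here, and V genes with near-identical copies are uncertain. The most frequent heavy V genes were Ighv1-26 (67 cells), Ighv1-82 (60), Ighv3-6 (29), Ighv14-4 (27) and Ighv1-53 (22). The most frequent light V genes were Igkv8-24 (46 cells), Igkv10-94 (30), Igkv1-110 (28), Igkv10-96 (28) and Iglv1 (27). Of the 28 cells with Igkv1-110, 20 were IgA.

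The germline ends of the V genes of the 4 most frequent pairs are shown because they lead into the junction, which was not analysed here. Each run is the last 60 bases of the coding sequence in GENCODE vM21 (GRCm38), 5′ to 3′ on the coding strand, with the 3 codons for tyrosine, tyrosine or phenylalanine, and cysteine before the junction in capitals. These are reference sequences and not reads of the cells.
Ighv1-26: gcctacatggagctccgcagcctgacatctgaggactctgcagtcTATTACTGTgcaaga
Igkv8-24: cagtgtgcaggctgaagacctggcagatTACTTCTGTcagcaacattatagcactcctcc
Ighv1-82: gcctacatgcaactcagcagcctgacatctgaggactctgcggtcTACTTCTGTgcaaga
Igkv10-96: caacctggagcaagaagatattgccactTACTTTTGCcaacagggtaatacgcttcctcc
Igkv10-94: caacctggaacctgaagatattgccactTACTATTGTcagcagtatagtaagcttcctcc
Ighv14-4: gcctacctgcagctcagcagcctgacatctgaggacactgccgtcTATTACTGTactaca
Iglv1: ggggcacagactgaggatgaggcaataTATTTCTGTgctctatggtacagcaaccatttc
Ighv1-26 lies at chr12:114788372-114788805, Ighv1-82 at chr12:115952538-115953005 and Ighv14-4 at chr12:114176438-114176867, all on the minus strand. Igkv8-24 lies at chr6:70216858-70217421, Igkv10-96 at chr6:68631963-68632442, Igkv10-94 at chr6:68704508-68704978 and Iglv1 at chr16:19085017-19085500, also on the minus strand. Over the coding sequence, the nearest other V gene had 96.9% identity for Ighv1-26 (Ighv1-18), 97.4% for Ighv14-4 (Ighv14-1), 97.1% for Igkv10-94 (Igkv10-95), 92.2% for Igkv10-96 (Igkv10-94), 90.2% for Igkv8-24 (Igkv8-30), 89.8% for Ighv1-82 (Ighv1-77) and 86.4% for Iglv1 (Iglv2).

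The largest sets of cells with the same pair were mostly IgM and lay mostly within 1 hashtag group. Ighv1-26 with Igkv8-24 was found in 25 cells, all WT and all IgM, of which 18 lay in hashtag group 5 of acute colitis and 4 in hashtag group 5 of control. Ighv1-82 with Igkv10-96 was found in 16 IgM cells, 14 of them in hashtag group 5 of APPNL-G-F acute colitis. Ighv1-82 with Igkv10-94 was found in 15 cells, 14 of them in hashtag group 4 of APPNL-G-F food allergy. Ighv14-4 with Iglv1 was spread more widely, with its 16 cells in 6 hashtag groups of 6 libraries. Even so, 9 of these cells lay in hashtag group 5 of APPNL-G-F acute colitis. Ighv1-80 with Igkv4-55 was found in 13 APPNL-G-F cells, 8 IgM and 5 IgG, in 4 hashtag groups of 3 libraries. Its classes lay mostly in different groups. Hashtag group 4 of acute colitis held 4 of the IgG cells. Hashtag group 6 of chronic colitis held 4 of the IgM cells, and hashtag group 6 of control held 3. Outside the 5 most frequent pairs, and chosen after its values were seen, Ighv1-66 with Igkv4-80 was found in 11 cells, all of them IgG and 10 of them in hashtag group 7 of APPNL-G-F control.

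Cells of the same hashtag group shared a V pair in 6.71% of all possible comparisons between 2 cells. The value was 0.339% between different hashtag groups of the same library and 0.269% between libraries. There were 87 sets of at least 2 cells with the same pair in a hashtag group, and 4 of them held more than 1 class. In the hashtag group where they lay, 250 of 371 IgM cells (67.4%) shared their pair with another IgM cell, 33 of 89 IgG cells (37.1%) with another IgG cell and 38 of 162 IgA cells (23.5%) with another IgA cell. Of the 38 IgA cells 24 lay in hashtag group 5 of APPNL-G-F food allergy, without which the share was 11.8%, and of the 33 IgG cells 19 lay in APPNL-G-F control, without which it was 23.0%. These shares grow with the number of cells, so the rate per comparison of 2 cells was used for the test. It was higher among IgM than among IgA cells in 12 of 12 hashtag groups, with medians of 13.2% and 1.59%. The mean difference was 15.1 percentage points, with p = 0.000488 in an exact two-sided sign-flip permutation test, the smallest it can give. This was the only comparison of its kind and was chosen after the data had been seen.

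**Figure D3:**
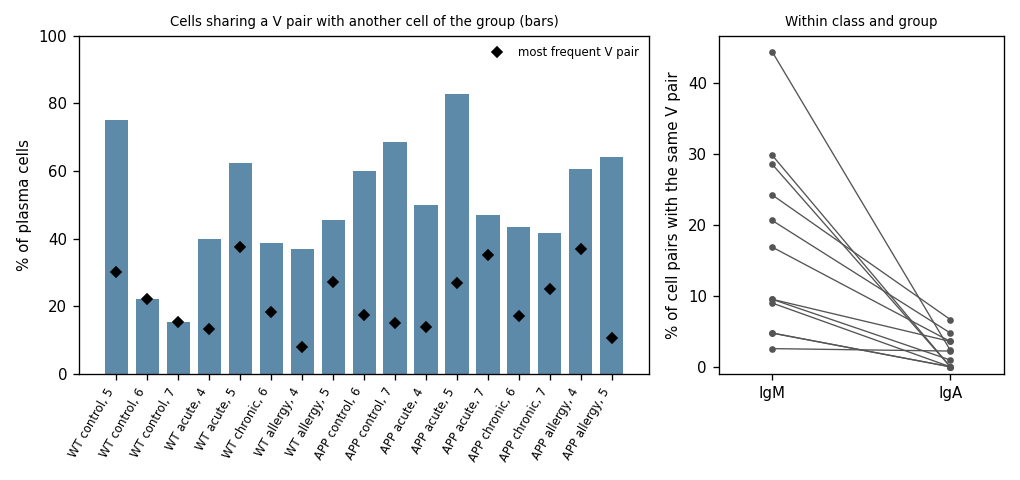
Left, percent of plasma cells that share their V pair with another cell of the hashtag group (bars) and percent with the most frequent pair (diamonds), for 17 hashtag groups. Right, percent of comparisons of 2 cells with the same V pair within IgM and within IgA cells, joined for each of 12 hashtag groups, where the IgM value is above the IgA value in all 12.

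IgA and IgM plasma cells of the same hashtag group differed in homing receptors, MHC class I and several surface and signalling genes. In edgeR's quasi-likelihood test with the hashtag group as block, 138 of 2146 genes (6.43%) passed a Benjamini-Hochberg adjusted p of 0.05 over 12 hashtag groups from all 8 libraries. Of these, 58 (2.70%) were higher and 80 (3.73%) lower in IgA cells, and the median over all genes tested was -0.01 on the log2 scale. The differences below are log2 differences of IgA from IgM cells ± SE, with adjusted p from this test.

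Ccr10, the receptor for the epithelial chemokines CCL27 and CCL28, was higher in IgA cells. It ranged from 113 to 373 CPM in IgA cells (median 220) and from 0 to 56.5 CPM in IgM cells (median 20.6), without overlap. The difference was 3.24 ± 0.21 (adjusted p = 2.04e-12) and had the same sign in 12 of 12 hashtag groups. Ccr10 was detected in 72.6% of IgA, 15.7% of IgM and 12.2% of IgG cells. Its position, chr11:101172997-101175443, overlaps Cntnap1 on the opposite strand. Itgb7, the β7 chain of the gut-homing integrin, rose by 1.39 ± 0.30 (adjusted p = 0.00348), with medians of 102 and 41.7 CPM and 10 of 12 groups higher, and the ranges overlapped. Selplg, the ligand of P-selectin, was higher by 0.50 ± 0.13 (adjusted p = 0.0103). These were the 3 of 8 tested homing and adhesion genes that passed, all of them higher, and the list had a median of 0.46. Itga4, the α chain that pairs with Itgb7, stood at 0.51 ± 0.19 (adjusted p = 0.109).

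Chst1, a sulfotransferase of carbohydrate chains, was the opposite of Ccr10. It ranged from 255 to 559 CPM in IgM cells (median 371) and from 0 to 71.1 CPM in IgA cells (median 26.1), again without overlap, and fell by 3.35 ± 0.21 on the log2 scale (adjusted p = 2.04e-12). IgG cells lay on the side of IgM cells, at 306 CPM. The classical MHC class I genes, which present peptides to CD8 T cells, were lower in IgA cells in 12 of 12 groups. H2-K1 had medians of 869 CPM in IgA and 2498 CPM in IgM cells (-1.41 ± 0.13, adjusted p = 4.92e-07) and H2-D1 522 and 1369 CPM (-1.31 ± 0.12, adjusted p = 4.59e-08). The non-classical gene H2-Q7 had medians of 29.2 and 248 CPM (-2.15 ± 0.30, adjusted p = 0.000116). H2 genes are similar in sequence, and how the counting divided reads between them was not tested. IgG cells had 2952 CPM of H2-K1 and 1424 CPM of H2-D1.

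Il10, Ccl4, Cd83, Cldn7 and Jun were lower in IgA cells. Il10, an anti-inflammatory cytokine, was detected in every IgM group, at 18.6 to 168 CPM (median 45.8), and ranged from 0 to 20.6 CPM in IgA cells (median 0), a difference of -3.57 ± 0.60 (adjusted p = 0.000167) seen in 12 of 12 groups. It rested on 123 UMIs in IgM and 6 in IgA cells, and IgG cells held 4. The chemokine gene Ccl4 had medians of 35.3 and 0 CPM (-3.27 ± 0.87, adjusted p = 0.0208), with 7 of 12 groups lower and 1 higher. These were 2 of 5 cytokine and regulatory genes tested (median -0.93). Cd83, a surface protein of activated B cells, had medians of 59.8 CPM in IgM and 3.41 CPM in IgA cells (-2.55 ± 0.39, adjusted p = 6.23e-05). Cldn7 had medians of 108 and 0 CPM (-3.05 ± 0.46, adjusted p = 0.000116), lower in 11 of 12 groups. Jun, an immediate-early gene, was lower in 12 of 12 groups (-1.64, adjusted p = 0.00167), the only 1 of 9 immediate-early genes to pass, over a list median of -0.46.

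In the other direction, Bst2 (tetherin, an interferon-inducible antiviral protein) had medians of 829 CPM in IgA and 356 CPM in IgM cells (1.26 ± 0.12, adjusted p = 2.25e-08, 12 of 12 groups). It was the only 1 of 5 interferon-stimulated genes tested to pass, over a list median of 0.15. Gpnmb, a transmembrane glycoprotein, had medians of 75 and 10.3 CPM (2.67 ± 0.39, adjusted p = 3.04e-05, 12 of 12). Vpreb3 had medians of 210 and 25.3 CPM (2.66 ± 0.35, adjusted p = 8.33e-05) and overlaps a pseudogene on the other strand. The syndecan gene Sdc4 rose by 1.72 ± 0.25 (adjusted p = 3.04e-05). Cd28, a costimulatory receptor that also supports plasma cell survival, had medians of 137 and 59.6 CPM (1.15 ± 0.21, adjusted p = 0.000353). It was the only 1 of 7 survival genes to pass, while the receptor genes Tnfrsf17 and Tnfrsf13b stood at 0.41 ± 0.19 and 0.34 ± 0.14 (adjusted p = 0.224 and 0.152).

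**Figure D4:**
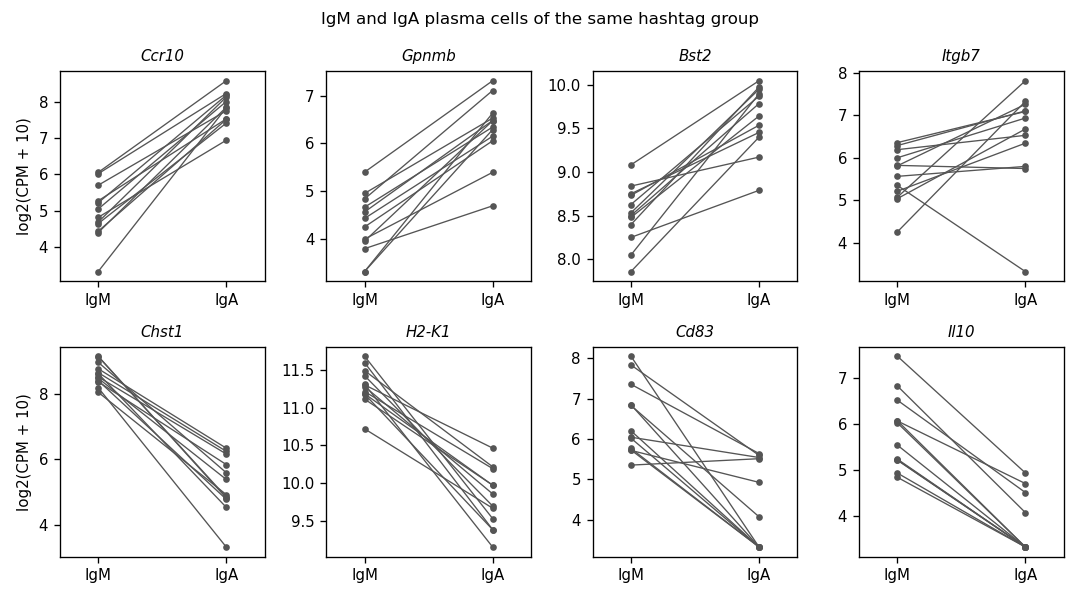
Levels of 8 genes as log2(CPM + 10) in IgM and IgA plasma cells, joined for each of 12 hashtag groups. Ccr10, Gpnmb and Bst2 are higher and Chst1, H2-K1 and Il10 lower in IgA cells in all 12 groups, while Itgb7 is higher in 10 and Cd83 lower in 11.

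Of 19 plasma cell identity genes, 4 were higher in IgA cells and none lower (median 0.14): Jchain, Cd28, Glipr1 and Xbp1. Glipr1 rose by 1.67 (adjusted p = 0.000353, 12 of 12 groups) and Xbp1 by 0.49 (adjusted p = 0.00211). Jchain, which the gate used, had medians of 204674 CPM in IgA and 127206 CPM in IgM cells (0.70 ± 0.08, adjusted p = 3.04e-05), and with immunoglobulin genes kept in the fit its adjusted p was 0.932. Of 27 genes of the unfolded protein response and folding, 2 rose and 3 fell (median -0.12). Edem2 and Edem1, which route misfolded glycoproteins to degradation, were higher by 0.82 (adjusted p = 4.92e-07) and 0.48 (adjusted p = 0.0417). The chaperone gene Calr (-0.38) and the unfolded protein response genes Sdf2l1 (-0.36) and Creld2 (-0.35) were lower, with adjusted p between 0.0380 and 0.0482. In the secretory pathway 2 of 28 genes rose and 1 fell (median 0.04), with the signal peptidase subunit Sec11c at 0.41 (adjusted p = 0.000161), the cargo receptor Lman1 at 0.46 (adjusted p = 0.00734) and the signal recognition particle subunit Srp14 at -0.60 (adjusted p = 0.00468). Stt3b, a catalytic subunit of oligosaccharyltransferase, which is in none of the lists, fell by 1.72 ± 0.24 on the log2 scale (adjusted p = 1.45e-05).

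Among 7 B cell genes, Cd79a (a chain of the B cell receptor) rose by 0.62 ± 0.09 in IgA cells (adjusted p = 3.84e-05) while Cd83 and Cd74 (-0.37, adjusted p = 0.00106) fell, over a list median of -0.56. Zbtb20, a transcription factor of long-lived plasma cells, was the only 1 of 5 such factors to pass (-0.69, adjusted p = 0.0471). The lists hold a few genes each, and these shares stand against the 6.43% of all genes. Other genes with small adjusted p were Tmem147, Jpt1 and Pqlc3, all higher by 0.94 to 1.06, and Oosp1 (-1.44), Far1 (-1.73), Lamp1 (-1.20) and Syngr2 (-0.77), all lower. Gm43218, annotated as a V gene at chr6:70240427-70240972 among the kappa V genes, was also lower (adjusted p = 0.000116), had UMIs in 4 IgM groups and none elsewhere, and did not pass in DESeq2 (adjusted p = 0.990). Since IgM cells shared V pairs more often, the fit was repeated with 1 cell per V pair, class and hashtag group, which called 78 genes, 66 of them among the 138.

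Cell-cycle genes did not separate the classes in the test. The list of 15 genes summed to 499 CPM in IgM, 1005 CPM in IgA and 419 CPM in IgG cells, and 0 of 6 tested genes passed between IgA and IgM cells, although all 6 were higher in IgA cells (median 1.01). Rrm2, a subunit of ribonucleotide reductase, was closest, at 1.91 ± 0.73 (adjusted p = 0.124). A few cells carried the signal, since 14 cells with at least 20 UMIs of the list (5 IgM, 6 IgA and 3 IgG) held 1741 of its 3488 UMIs. Leaving them out gave 124 genes between the classes. The level per hashtag group differed from control by -0.38, -0.47 and 0.01 (log2(CPM + 10)) in acute colitis, chronic colitis and food allergy, and by -0.15 between the genotypes, each with an adjusted exact permutation p of 0.983.

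Between genotypes, Pon3, B2m, Ssr4 and Ergic1 were higher and Cd83, Gapdh and Eno1 lower in APPNL-G-F plasma cells, over a mix of classes that also differed. UMIs were summed over the plasma cells of each of 17 hashtag groups, so that a change in the mix of cells and a change within cells cannot be told apart in the sums. In edgeR's quasi-likelihood test with genotype and treatment as terms, 25 of 4873 genes (0.513%) passed an adjusted p of 0.05, 15 higher (0.308%) and 10 lower (0.205%) in APPNL-G-F. The median over all genes was -0.01. With immunoglobulin genes kept in the fit, 2 genes were higher and 6 lower. The differences are log2 differences ± SE with Benjamini-Hochberg adjusted p.

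Pon3, a paraoxonase that hydrolyses lactones, led the higher genes. It ranged from 105 to 286 CPM in WT (median 138) and from 233 to 566 CPM in APPNL-G-F groups (median 352), with a small overlap, a difference of 1.26 ± 0.15 (adjusted p = 6.87e-06). Ssr4, a subunit of the translocon-associated protein complex, had 2190 to 3457 CPM in WT and 3562 to 6627 CPM in APPNL-G-F without overlap (0.61 ± 0.11, adjusted p = 0.00334). B2m, the light chain of MHC class I, had 2789 to 3429 and 3537 to 5578 CPM, again without overlap (0.51 ± 0.10, adjusted p = 0.0119). Edem2 had medians of 1029 and 1552 CPM (0.60 ± 0.13, adjusted p = 0.0180). Ergic1, a protein of vesicles between the endoplasmic reticulum and the Golgi that overlaps Dusp1 on the other strand, rose by 0.67 ± 0.12 (adjusted p = 0.00334). Txndc11 (0.57) and Prdx4 (0.52), which act in disulfide chemistry of the endoplasmic reticulum, rose with an adjusted p of 0.0343. The lysosomal gene Aga (0.96), Atp5j2 (0.58), Rps27l (0.55) and mt-Atp8, which overlaps mt-Atp6 (1.31), were also higher, as was the nonagouti gene, symbol a (1.18), which overlaps Raly and Eif2s2.

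Cd83 was lower in APPNL-G-F plasma cells. It ranged from 36.3 to 209 CPM in WT (median 105) and from 20.4 to 47.3 CPM in APPNL-G-F groups (median 26.9), with overlap, and fell by 1.81 ± 0.28 on the log2 scale (adjusted p = 0.00214). Hnrnpa0, an RNA-binding protein, had medians of 179 and 86.5 CPM without overlap (-1.0 ± 0.15, adjusted p = 0.000619). Gapdh had 498 to 861 and 109 to 436 CPM without overlap (-1.08 ± 0.21, adjusted p = 0.0343), and a second glycolytic gene, Eno1, had medians of 74.3 and 17.3 CPM (-1.66 ± 0.30, adjusted p = 0.00976). Ptprc, which encodes CD45, had medians of 99.0 and 59.7 CPM (-0.85 ± 0.17, adjusted p = 0.0148). Phlda1 (-2.54), P2ry10 (-1.25), Pde4b (-0.93), the histone gene Hist1h2bc (-1.78) and the sialyltransferase St6gal1 (-0.73) were also lower.

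**Figure D5:**
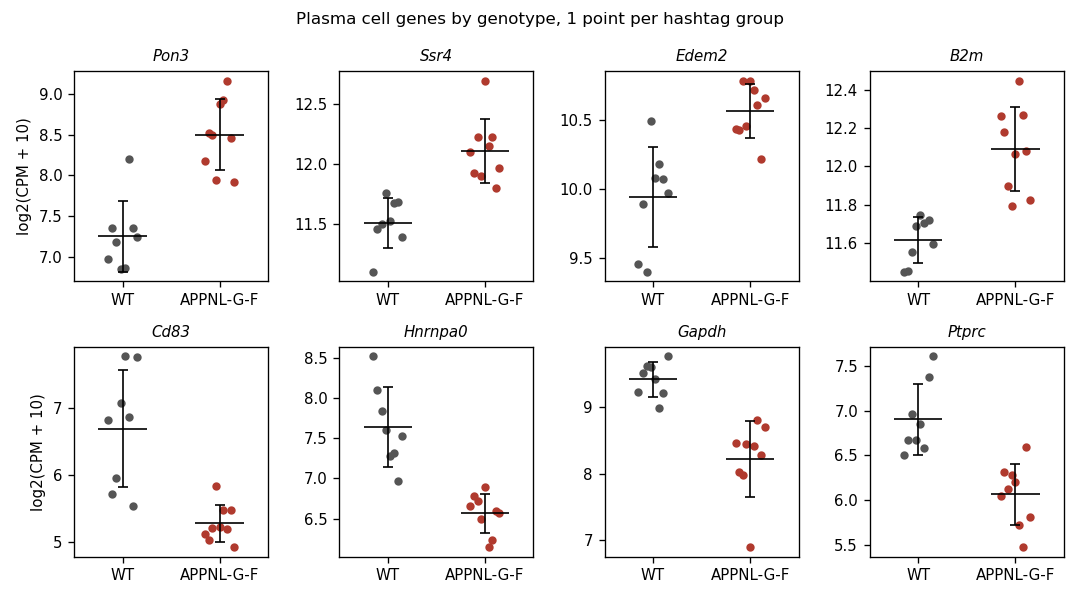
Levels of 8 genes as log2(CPM + 10) in the plasma cells of 8 WT and 9 APPNL-G-F hashtag groups, 1 point each, with mean and SD. Ssr4, B2m, Hnrnpa0 and Gapdh do not overlap between the genotypes, while Pon3 and Cd83 overlap in part.

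Several of these genes differed between classes of plasma cell, and IgG cells were more frequent in APPNL-G-F mice. Pon3 stood at 730 CPM over IgG cells, 240 CPM over IgM and 120 CPM over IgA cells. B2m stood at 6837, 3724 and 2645 CPM and Ssr4 at 5810, 3344 and 3583 CPM in the same order. Cd83 stood at 1.13 CPM in IgG, 94.4 CPM in IgM and 13.6 CPM in IgA cells. These levels pool the genotypes, and 82 of the 90 IgG cells were APPNL-G-F. Within APPNL-G-F, Pon3 stood at 730 CPM in IgG, 295 CPM in IgM and 117 CPM in IgA cells, and B2m at 6816, 3935 and 2830 CPM. The 8 WT IgG cells had 732 CPM of Pon3, against 159 CPM in WT IgM cells. Within IgM cells, Cd83 stood at 155 CPM in WT and 53.1 CPM in APPNL-G-F. Within IgA cells it stood at 23.5 and 7.39 CPM, on 14 and 7 UMIs. Ssr4 stood at 2818 CPM in WT and 3702 CPM in APPNL-G-F IgM cells, and at 3375 and 3713 CPM in IgA cells. With IgG cells left out, 7 genes passed of 3854: Pon3 (0.84, adjusted p = 0.00789), Cd83 (-1.49, adjusted p = 0.0240), Ptprc, Eno1, Gapdh, Hnrnpa0 and mt-Atp8. B2m then stood at 0.32 (adjusted p = 0.20). In IgM cells alone, 1 gene passed of 2565, mt-Atp8, and B2m stood at 0.09 (adjusted p = 0.981). In both fits 24 of the 25 genes were tested again and 24 of 24 kept their direction. Both fits used part of the cells that had given the 25 genes, so the kept direction is no independent support. Of the 25 genes, 1 still passed in IgM cells alone and 7 with IgG cells left out. Both fits were added once the data were known.

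Other genes of the set differed between the genotypes in other cells too. Gapdh ranged from 550 to 837 CPM in WT and from 305 to 464 CPM in APPNL-G-F B cells, and from 696 to 1085 and from 307 to 570 CPM in Cd3e barcodes of the same hashtag groups. Eno1 had 114 to 210 and 62.9 to 108 CPM in B cells and 184 to 356 and 97.9 to 162 CPM in Cd3e barcodes. Hnrnpa0 had medians of 412 CPM in WT and 259 CPM in APPNL-G-F B cells, and of 376 and 232 CPM in Cd3e barcodes. Hist1h2bc had medians of 19.5 and 6.99 CPM in B cells and of 7.43 and 3.80 CPM in Cd3e barcodes. The ranges of both genes overlapped between the genotypes in these cells. The median of mt-Atp8 in B cells was 120 CPM in WT (102 to 442) and 409 CPM in APPNL-G-F (323 to 534). In Cd3e barcodes it was 115 CPM (98.8 to 463) and 332 CPM (282 to 427), so the ranges overlapped in both. Pon3 was low in B cells, with medians of 21.4 and 29.9 CPM, and the Cd83 ranges overlapped there (medians 279 and 189 CPM). No test was made in these cells.

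Among the lists, the secretory pathway had 1 of 29 genes higher (Ssr4), with 24 of 29 differences above 0 and a median of 0.22, and the unfolded protein response had 1 of 29 higher (Edem2), with a median of 0.12. The B cell list had 1 of 9 lower (Cd83), with a median of -0.69. Over all genes, 0.308% were called higher and 0.205% lower, and the share of differences above 0 was not computed. None of 19 identity genes, 11 homing genes, 11 survival genes or 8 interferon-stimulated genes passed. Of the identity differences 13 of 19 were above 0 (median 0.12). All 8 interferon-stimulated differences were below 0 (median -0.30). So were 8 of 10 immediate-early differences (median -0.28) and 6 of 7 of the transcription factor list (median -0.36), none of which passed. Fkbp11 was the closest identity gene, at 0.56 ± 0.15 (adjusted p = 0.104).

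Few plasma cell genes passed the test in acute colitis and none in chronic colitis or food allergy. In acute colitis 3 of 4873 genes (0.0616%) passed edgeR's test against control, 1 higher (0.0205%) and 2 lower (0.0410%), of 374 with an unadjusted p under 0.05. Prdx4, a peroxiredoxin of the endoplasmic reticulum, ranged from 403 to 830 CPM in 5 control groups and from 765 to 1564 CPM in 5 acute groups, with overlap (0.84 ± 0.15, adjusted p = 0.0226). Prdm1 was 1 of the 4 other genes of the gate, so its call is no independent result, and it ranged from 129 to 322 CPM in control and from 53.7 to 113 CPM in acute colitis. Tg ranged from 37.5 to 94.2 CPM in control and from 6.59 to 18.2 CPM in acute colitis (-2.30 ± 0.44, adjusted p = 0.0250) and overlaps Sla on the other strand. Mzb1 (0.63 ± 0.14, adjusted p = 0.0553) missed the threshold. In the unfolded protein response list 26 of 29 differences were above 0 with a median of 0.20, and none passed. Leaving out WT control hashtag group 7, WT acute hashtag group 4 or APPNL-G-F acute hashtag group 4 left no gene. Keeping immunoglobulin genes in the fit also ended the calls of Prdx4 and Tg (adjusted p = 0.0978 and 0.0654), as did a minimum of 20 plasma cells per group (adjusted p = 0.240 and 0.116).

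In chronic colitis 0 of 4873 genes (0%) passed in edgeR, of 302 with an unadjusted p under 0.05, and 5 passed in DESeq2. In food allergy 0 of 4873 genes (0%) passed in edgeR, of 341 with an unadjusted p under 0.05, and 1 passed in DESeq2. Dusp1, a phosphatase gene of the immediate-early list, stood at 1.68 ± 0.54 (adjusted p = 0.558) in food allergy, and all 10 immediate-early genes were above 0 there, with a median of 0.47. In chronic colitis 9 of 10 immediate-early genes were above 0, with a median of 0.35, and the identity list had a median of 0.34. The treated groups of both comparisons all belonged to the high immediate-early set, while hashtag group 5 of WT control belonged to the low set. Both comparisons rest on 3 and 4 treated groups against the same 5 control groups, and a p above the threshold does not show that the cells were alike.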

How the data were processed

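Droplets were processed by the authors with the 10x Genomics 5′ kit. The deposited matrices hold counts of UMIs per gene and hashtag for every barcode, without normalization, on mm10. The submitters' processing notes name Cell Ranger 6.1.2, while the file headers name version 4. The V(D)J libraries are not used here.

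Barcodes with at least 500 UMIs, at least 200 genes, at most 5% mitochondrial UMIs, and a top hashtag of at least 50 counts and 3 times the next were kept. No doublet caller was run, and the hashtag ratio and the Ms4a1 and Cd3e terms stand in for one. The members and gene lists were chosen with earlier results of these data known. Shares were tested in hashtag groups with at least 100 barcodes, and classes in groups with at least 10 plasma cells, by stratified permutation (exact, or 100000 resamples for the plasma cell share between genotypes). The cell-cycle level is log2(CPM + 10). UMIs were summed per hashtag group (for IgA against IgM cells, at least 5 of each) without 392 immunoglobulin genes and tested with edgeR 4.0.16 (filterByExpr, TMM, robust quasi-likelihood). SE is the absolute log2 difference divided by the square root of F. Reads of near-identical genes, and of overlapping genes where strand does not separate them, are uncertain. The genes named were up to 12 each way with the smallest adjusted p per comparison, and members of fixed lists, some of which are not reported here. Alternatives covered filters, gate, normalization, DESeq2 1.42.0, and leaving out each hashtag group. Python 3.11.15 with numpy 2.4.6, scipy 1.17.1, pandas 2.3.3, Biopython 1.88 and matplotlib 3.10.9, and R 4.3.3 with limma 3.58.1 were used, and the tests were checked on simulated data. Coordinates are from GENCODE vM21, which matched 63 of 63 named genes.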

Additional observations from a re-analysis of the deposited data

How the results depend on the processing

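The IgG difference between genotypes kept its direction and its call in every alternative run, and leaving out 1 hashtag group at a time gave 16.3 to 18.9 points. No other share or cell-cycle comparison passed in the main test, and signs that turned were those of uncalled differences. The IgA share in acute colitis turned to 1.72 points with 3 of the 4 other gate genes required, 0.939 without the Ms4a1 and Cd3e terms and 2.06 at 2 times the minimum group size. That size also turned the IgA share to 10.3 points in chronic colitis and 8.38 between genotypes, and the cell-cycle level in chronic colitis to 0.0918. A top hashtag 10 times the second gave 0.906 points for IgA between genotypes. The plasma cell share in food allergy turned to -0.0790 points without the Ms4a1 and Cd3e terms, -0.0589 within immediate-early sets and -0.0492 in cells thinned to 1000 UMIs, and that in acute colitis to -3.44 points of plasma plus B cells. Within immediate-early sets the IgM share stood at 7.31 points in chronic colitis and 6.38 in food allergy, and the cell-cycle level in food allergy at -0.28. That level was -0.0083 with a pseudocount of 100 and -0.0027 per all UMIs. The IgG share in acute colitis was 1.37 points with 1 cell per V pair, and in chronic colitis 6.79 points and past the threshold (adjusted exact permutation p = 0.0267) without the Ms4a1 and Cd3e terms. The causes were not tested.

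Without 1 hashtag group each, the plasma cell share ranged from -0.0108 to 0.804 points for acute colitis, from -0.590 to 0.0770 for chronic colitis, from -0.277 to 0.383 for food allergy and from 0.664 to 1.05 for the genotypes. The IgA share ranged from -14.7 to 4.71, -16.5 to -1.21, -3.06 to 22.8 and -11.7 to 1.29 points, the IgM share from -1.61 to 16.7, -7.97 to 7.31, -14.8 to 9.67 and -18.4 to -6.21 points, and the cell-cycle level from -0.66 to -0.19, -0.91 to 0.48, -0.43 to 0.44 and -0.37 to 0.0692, each for these 4 comparisons in turn. The IgG share ranged from -3.93 to 0.104, 7.21 to 11.1 and -8.04 to -6.61 points in the treatments.

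Counts of genes moved more. DESeq2 gave 8 genes in acute colitis, 5 in chronic colitis, 1 in food allergy and 47 between genotypes. No filter on low counts gave 23, 12, 32 and 122, and 283 between IgA and IgM cells. Immunoglobulin genes kept gave 0 in acute colitis, 1 in chronic colitis and 8 between genotypes. A model of 8 genotype-by-treatment means gave 32, 38 and 70 in acute colitis, chronic colitis and between genotypes. A minimum of 20 plasma cells gave 0 in acute colitis. Between genotypes, IgM cells alone gave 1 and IgG cells left out gave 7. Between IgA and IgM cells, 79 genes were called at 2 times the minimum (54 of the 138 among them), 76 with no replicate block (67), 78 with 1 cell per V pair (66) and 26 (14) with cells of at least 2 cell-cycle UMIs left out, which leaves 128 IgM and 55 IgA cells. Leaving out 1 hashtag group gave 0 to 12 genes for acute colitis, 0 to 1 for chronic colitis, 0 to 2 for food allergy, 10 to 36 between genotypes (25 with all groups) and 100 to 141 between classes. The lowest count between genotypes was without APPNL-G-F control hashtag group 6, followed by 12 without APPNL-G-F acute 4, 14 each without WT acute 5, WT allergy 4 or APPNL-G-F allergy 5, 15 without APPNL-G-F control 7 and 16 each without WT control 6, WT chronic 6 or WT allergy 5 (hashtag numbers). The 3 genes of acute colitis became 0 without WT control 7, WT acute 4 or APPNL-G-F acute 4, 1 without APPNL-G-F acute 5, 5 without WT chronic 6 and 12 without APPNL-G-F acute 7. No paired analysis was possible between treatments or genotypes because the labels number no replicates and a hashtag number names no shared animal.

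With 1 library per condition, 8 and 9 hashtag groups per genotype, and 11 to 67 plasma cells in a group, the size of class difference that could be detected between treatments was not computed.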
